A study of Xenopus laevis with 51 samples.

Results

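The hindbrain of unoperated juvenile *Xenopus laevis* frogs was compared with that of unoperated late tadpoles, a comparison across metamorphosis in animals that received no injury. Membership followed the sample titles alone: 3 libraries titled as unoperated juveniles and 3 titled as 3-week tadpole controls, that is 6 of the 51 libraries of the series. Each library was made from a pool of 5 hindbrains of an albino strain from 1 supplier, and sex was not determined. Frogs were 1 to 3 months old after metamorphosis. Tadpoles were labelled as Nieuwkoop-Faber stage 53, a label given to every tadpole group, although the late group was kept for 3 weeks, so that the stage at collection is not given. The 6 pools were the uncut controls of a study that cut the spinal cord of regenerating tadpoles and non-regenerating frogs. A set of 3 frog and 3 tadpole libraries taken 3 weeks after transection supplied a second, separate measurement of the same stage difference. Younger unoperated tadpoles taken at 3 days and at 1 week supplied levels and, among the alternatives at the end, other controls. The titles of the 3-day group give no day, which was taken from the study's design of age-matched controls for each tadpole time point.

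Metamorphosis in frogs is driven by thyroid hormone, which enters cells through membrane transporters, is activated or inactivated by deiodinases and acts through nuclear receptors encoded by THRA and THRB. The hindbrain holds the reticulospinal and vestibulospinal neurons that send axons to the spinal cord, the cerebellum, and the radial glia that line the ventricle and act as progenitors in amphibians. During metamorphosis the tail and its motor circuits are lost, limb circuits take over, axons are myelinated, and red blood cells switch from larval to adult globins.

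Expression was given as FPKM, a read count scaled for the length of the transcript and the number of mapped reads of the library. The table held 24381 gene entries, and the 2 homeologous copies that many genes have in this allotetraploid species appear as separate entries that share 1 gene symbol, without a label telling which subgenome they belong to. Symbols are those of human orthologues. An entry was tested where its mean reached 0.45 FPKM in at least 1 of the groups compared, and was called at an adjusted p of at most 0.05 with limma on log2(FPKM + 0.5). All log2 differences below are frog minus late tadpole on that scale, which understates the change of low genes, and the adjusted p-values in this text are limma's with Benjamini-Hochberg adjustment over all entries tested. The labels do not say that the 3 libraries of a group came from separate clutches or days, so the p-values measure the spread between pools.

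Of 20178 entries tested, 6978 were called (34.6%): 3661 were higher in frogs (18.1%) and 3317 were lower (16.4%). A difference of at least 2-fold was called upward for 486 entries (2.41%) and downward for 425 (2.11%). Over 18368 entries, libraries of 1 group correlated at 0.980 to 0.985 and libraries of different groups at 0.937 to 0.950. The median difference over all entries tested was 0.02. A pair of properties of the frog libraries moved with stage. All 3 carry the letter R in their titles, which no other library of the series does and which nothing explains, and 1 read was worth 1.31 to 1.38 times the FPKM it was worth in the median hindbrain library, against 0.904 to 1.08 times in late tadpoles, so by this measure the frog libraries were the shallower ones. The scaling of the deposited FPKM also enters this measure. The paper reports aligned reads per sample with an SD small beside their mean, and read totals of each library were not used here. The part of either property in the results was not tested.

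Markers of tissue that does not belong to the hindbrain were looked at before the results. Skeletal muscle genes had 6 entries called higher in frogs and 0 lower, and the 6 included both PVALB entries given below with Purkinje cells. Cartilage and bone genes had 3 called higher and 0 lower, pituitary genes 2 and 1, and skin genes 3 and 2. For these lists and those below, the shares over all entries tested were 18.1% called higher and 16.4% called lower. The 3 called cartilage and bone entries were of low level, averaging 0.307 to 0.603 FPKM in late tadpoles and 0.890 to 1.79 FPKM in frogs. The other entries tested in that list, RUNX2 and both of SOX9, were not called (adjusted p = 0.153, 0.615 and 0.345). The higher pituitary entries were low too, FSHB at 0.270 and 0.877 FPKM and GH1 at 0.560 and 1.61 FPKM. The lower one, of POMC, was at 1.44 and 0.239 FPKM (-1.43, adjusted p = 0.0038). The only other pituitary entry tested, of FSHB, was not called (adjusted p = 0.206). Both lists thus held larger shares called higher than all entries tested, though from few entries. The source of these differences was not tested. Lens genes summed to 313.6 FPKM in frog replicate 2, against 49.7 and 18.5 FPKM in the other 2 frog libraries and 26.9 to 52.7 FPKM in late tadpoles, and photoreceptor genes summed to 53.1 FPKM in that library and to 7.54 and 15.3 FPKM in the other frog libraries. Of 34 lens entries tested, 0 were called at an adjusted p of at most 0.05. Among the 6 unoperated libraries frog replicate 2 thus held the highest sums of eye genes, and in the second measurement described below transected frog replicate 1 held more (711.3 FPKM of lens and 74.5 FPKM of photoreceptor genes). For the unoperated libraries, a list's counts of called entries above 1 that moved by more than 1.5 times without frog replicate 2 are given beside the results. Neuronal genes were abundant in both groups but did not move together. The more abundant SYP entry, for the synaptic vesicle protein synaptophysin, averaged 283 FPKM in late tadpoles and 277 FPKM in frogs (adjusted p = 0.82). In the list of neuron markers 6 entries were called higher and 6 lower, which became 3 and 4 without frog replicate 2. Both entries of ELAVL4 were lower (-0.80 and -0.64), and both of NEFM were higher (1.55 and 1.43). In bulk tissue, fewer cells of a type and less RNA per cell cannot be told apart, and this holds for every comparison below.

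The stage difference was measured a second time between transected frogs and transected tadpoles, in 6 libraries that share no pool with the unoperated ones and carry no letter R. There, 7151 of 20114 entries were called (35.6%), 4012 higher in frogs (19.9%) and 3139 lower (15.6%), with 491 at least 2-fold higher (2.44%) and 368 at least 2-fold lower (1.83%). Of the 6917 entries called in unoperated animals and tested in both, 94.7% differed in the same direction after transection and 64.4% were also called that way, while 13 were called the opposite way. Among entries called at least 2-fold higher, 98.7% had the same direction and 84.3% were called again. Among those called at least 2-fold lower, the shares were 98.3% and 87.0%. For comparison, 69.4% of the 12956 entries not called in unoperated animals had the same direction in both measurements. The log2 differences correlated at 0.798 across the 19873 entries tested in both, a correlation across genes, which are not independent replicates.

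**Figure D1:**
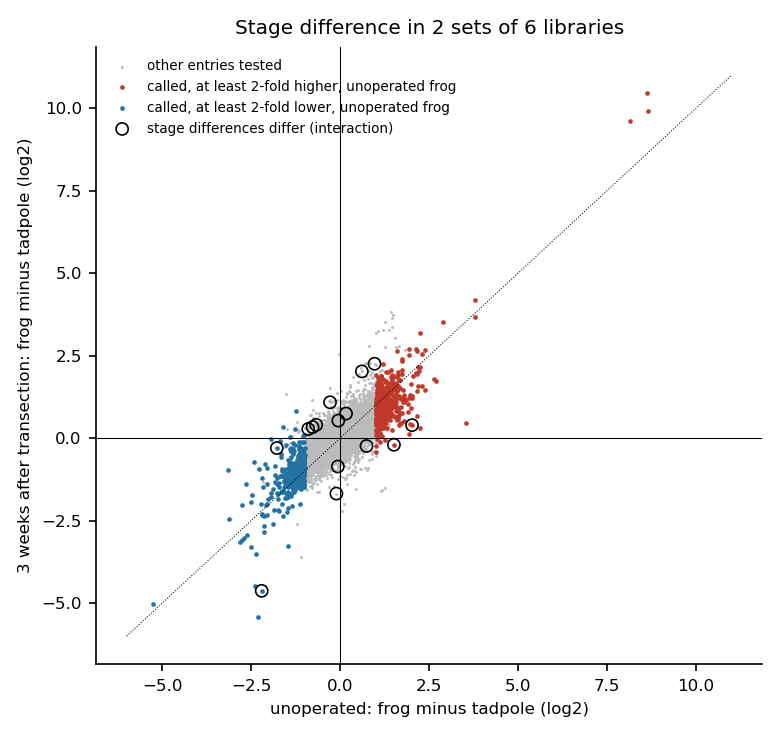
Frog minus tadpole log2 difference in the 6 unoperated libraries (horizontal axis) and in 6 other libraries taken 3 weeks after transection (vertical axis), 1 point per gene entry. Entries called at least 2-fold higher (red) or lower (blue) in unoperated frogs lie along the dotted line of equality, 3 globin entries stand alone at the upper right, and circles mark the entries tested in both sets whose stage difference differed between them.

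The thyroid hormone pathway itself shifted in parts. Of 35 entries tested, 13 were higher in frogs and 5 were lower, with a median difference of 0.23 against 0.02 over all entries tested. After transection 16 of 34 were higher and 4 lower. The count of 13 fell to 7 without frog replicate 1, and the 5 became 3 without frog replicate 2. Of the 2 entries of THRB, the thyroid hormone receptor gene that the hormone itself induces in tadpoles, the first stood at 1.19, 3.93 and 1.76 FPKM in late tadpoles and at 5.40, 4.30 and 5.63 FPKM in frogs (log2 difference 1.12 ± 0.32 SE, adjusted p = 0.0279). The second stood at 1.64, 5.31 and 3.62 FPKM and at 6.11, 6.32 and 7.16 FPKM (0.92 ± 0.31, adjusted p = 0.0539) and was called after transection (1.84, adjusted p = 0.00015). Late tadpole replicate 2 was the highest tadpole library for both entries, the groups did not overlap, and the first call was lost without any of 4 of the 6 libraries (adjusted p up to 0.0808). THRA, the other receptor gene, was at 3.46 FPKM in late tadpoles and 5.35 FPKM in frogs and was not called (0.60, adjusted p = 0.053). KLF9, a zinc finger gene directly induced by the hormone, stood at 5.79, 14.7 and 7.11 FPKM in late tadpoles and at 12.8, 11.3 and 11.1 FPKM in frogs for its more abundant entry. The groups overlapped through late tadpole replicate 2 and the entry was not called (0.44, adjusted p = 0.258). It was called between transected animals (1.42, adjusted p = 0.0013), but the interaction test given below did not call a difference between the 2 measurements. Against younger tadpoles both levels were high: the same entry averaged 1.28 FPKM at 3 days and 4.47 FPKM at 1 week.

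Hormone supply genes moved in both directions. CRYM, a cytosolic thyroid hormone binding protein, was at 1.69, 1.88 and 3.14 FPKM in late tadpoles and at 7.67, 6.43 and 5.57 FPKM in frogs for its less abundant entry (1.39 ± 0.21, adjusted p = 0.0020), and its other entry was higher too (0.53, adjusted p = 0.011). DIO2, the activating deiodinase, went the other way: 1 entry was at 1.92, 0.95 and 0.796 FPKM in late tadpoles and at 0, 0.203 and 0.195 FPKM in frogs (-1.41 ± 0.28, adjusted p = 0.0066), and its stage difference was not called after transection (-0.72, adjusted p = 0.39). The inactivating deiodinase DIO3 stayed under 0.45 FPKM in all 6 libraries and was not tested. Both entries of BCL6, a transcriptional repressor, were higher in frogs, of which 1 was at 11.5 and 19.2 FPKM (0.74, adjusted p = 0.0081) and the other (0.66) lost its call without any of 5 of the 6 libraries (adjusted p up to 0.0664).

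Genes of myelin, the sheath that oligodendrocytes wrap around axons, rose. Of 34 entries tested, 26 were higher in frogs, 18 of them at least 2-fold, and 1 was lower, with a median difference of 1.19. Between transected animals 22 were higher and 1 lower (median 1.12). The summed level of the list was 6597 to 7881 FPKM in late tadpoles and 17290 to 18960 FPKM in frogs. With any 1 library left out the count was at least 24. The more abundant of 2 MBP entries, which encode myelin basic protein, stood at 2024, 2507 and 2241 FPKM in late tadpoles and at 6913, 6553 and 6427 FPKM in frogs (1.56 ± 0.21, adjusted p = 0.0013), and the other at 927 and 2287 FPKM on average (1.31). All frog libraries lay above all late tadpole libraries for these entries.

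MAG, a glycoprotein of the innermost myelin layer that inhibits axon growth in mammals, was at 85.2, 98.5 and 82.7 FPKM in late tadpoles and at 298, 267 and 286 FPKM in frogs (1.67 ± 0.09, adjusted p = 6.7e-05). Both entries of CLDN11, the tight junction protein of myelin, rose (1.84 and 1.28), as did both entries of CNP (1.21 and 1.35). MYRF, the transcription factor that drives myelin genes, rose from 4.30 to 14.6 FPKM (1.65 ± 0.12, adjusted p = 0.00013). The more abundant MOG entry, for a glycoprotein of the outer myelin surface, was slightly lower in frogs (12.7 and 9.998 FPKM, -0.33, adjusted p = 0.0427), a call lost without any of 5 of the 6 libraries (adjusted p up to 0.121). It was called lower after transection too (-0.37, adjusted p = 0.0097). The other MOG entry was at 7.91, 16.4 and 3.93 FPKM in late tadpoles and at 3.41, 3.32 and 3.025 FPKM in frogs. Its groups did not overlap, and it was not called (-1.19, adjusted p = 0.0516). In younger tadpoles MBP was lower still: its more abundant entry was at 886 to 969 FPKM at 3 days and at 1926 to 2156 FPKM at 1 week, the latter overlapping the late tadpoles.

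Genes of the oligodendrocyte lineage upstream of myelin moved the same way. Of 16 entries tested, 9 were higher in frogs and 0 lower (median 0.45). The more abundant SOX10 entry, for a lineage transcription factor, was at 24.2, 30.3 and 25.2 FPKM in late tadpoles and at 57.4, 58.3 and 59.2 FPKM in frogs (1.13 ± 0.09, adjusted p = 0.00017), and the second entry rose by 1.15. NKX2-2 rose from 6.88 to 20.2 FPKM in its more abundant entry (1.497), GPR17, a receptor of differentiating precursors, from 16.2 to 39.1 FPKM (1.26) and OLIG1 from 15.3 to 32.2 FPKM (1.05). After transection the SOX10 entries (1.18 and 1.36), this NKX2-2 entry (1.06) and OLIG1 (0.62) were called again. The GPR17 entry was not (0.75, adjusted p = 0.149), nor was the less abundant NKX2-2 entry (0.21, adjusted p = 0.219). PDGFRA, which marks precursors that still divide, was called in 1 of 3 entries only, at 10.1 and 12.3 FPKM (0.28, adjusted p = 0.0434), a call lost without any 1 of the 6 libraries. After transection this entry (0.45, adjusted p = 0.0033) and the most abundant PDGFRA entry (0.26, adjusted p = 0.0321) were called higher. The least abundant was not called there (0.30, adjusted p = 0.299). CSPG4, another precursor marker, was at 1.76 and 2.201 FPKM and was not called (adjusted p = 0.223).

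**Figure D2:**
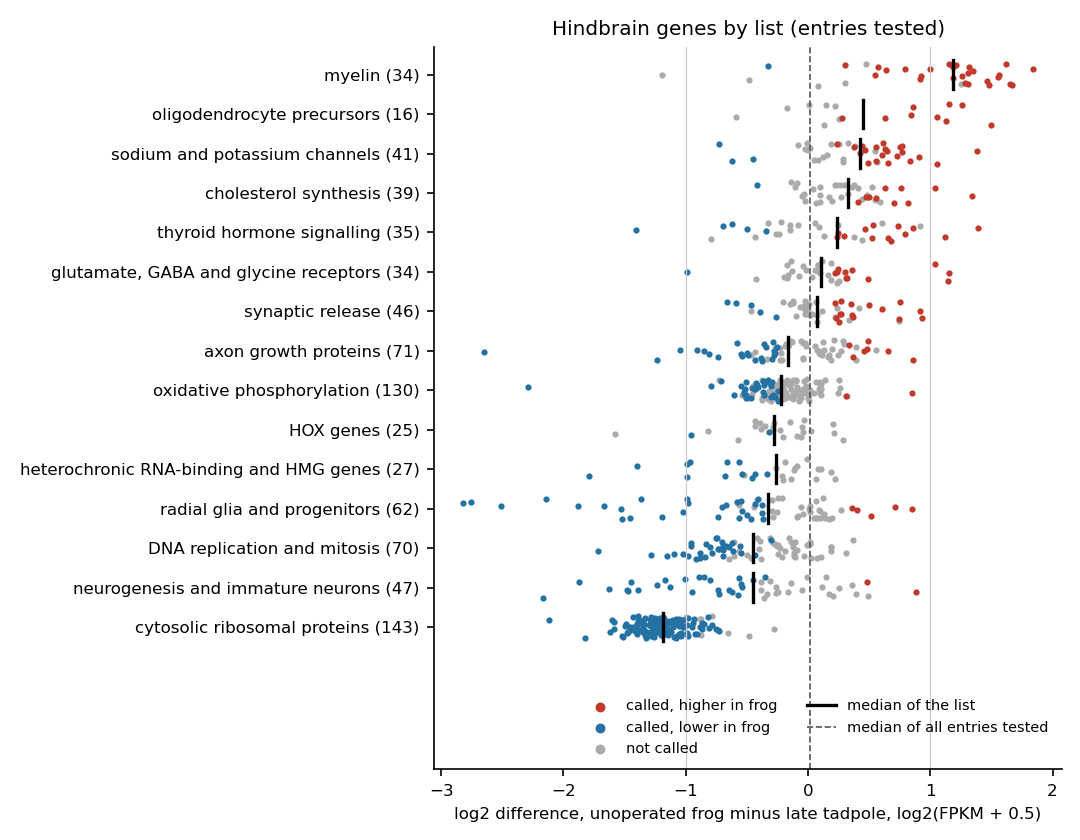
Log2 difference, unoperated frog minus late tadpole, for every tested entry of 15 gene lists (horizontal axis; number of entries in brackets), red where called higher, blue where called lower, grey where not called. Black bars mark each list's median, from 1.19 for myelin to -1.18 for cytosolic ribosomal proteins, beside the dashed median of 0.02 over all entries tested.

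Genes of DNA replication and mitosis were lower in frogs or not called. Of 70 entries tested, 0 were higher and 31 lower (median -0.45), and between transected animals 1 was higher and 20 lower. The 31 fell to 18 without late tadpole replicate 1. TOP2A, the topoisomerase of dividing cells, stood at 3.61, 2.36 and 2.85 FPKM in late tadpoles and at 0.369, 0.375 and 0.966 FPKM in frogs (-1.71 ± 0.24, adjusted p = 0.0016). One entry of MCM7, a subunit of the replicative helicase, fell from 5.98 to 2.16 FPKM (-1.29 ± 0.11), and RRM2, a subunit of ribonucleotide reductase, from 1.77 to 0.490 FPKM (-1.15). Levels were far higher in the youngest tadpoles, where TOP2A was at 32.4 to 33.0 FPKM at 3 days and at 7.56 to 9.56 FPKM at 1 week. Not all cell cycle genes followed. PCNA, the sliding clamp, was at 12.8 and 10.3 FPKM in its more abundant entry (-0.30, adjusted p = 0.0239), a call lost without any of 4 of the 6 libraries (adjusted p up to 0.0748), and MKI67, the gene of the Ki-67 antigen, was at 5.00 and 5.79 FPKM and was not called (0.19, adjusted p = 0.224).

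Genes of radial glia and progenitors were lower in frogs more often than higher. Of 62 entries tested, 28 were lower in frogs, 12 of them at least 2-fold, and 5 were higher (median -0.33). After transection 35 were lower and 3 higher. The 5 higher entries belong to NOTCH1, NOTCH2 and PROM1 and became 2 without frog replicate 2. FABP7, the brain lipid binding protein of radial glia, was at 590, 472 and 927 FPKM in late tadpoles and at 84.7, 108 and 78.2 FPKM in frogs (-2.82 ± 0.24, adjusted p = 0.0002). It had been at 3524 to 4489 FPKM at 3 days and at 1106 to 1173 FPKM at 1 week, so that each of the 4 unoperated groups lay below the one before without overlap. The HES5 family of Notch target repressors, whose members share sequence and whose reads may be split between entries, had 12 entries tested, and all 12 were lower in frogs. The most abundant of them stood at 19.2, 11.2 and 14.5 FPKM and at 1.27, 5.62 and 3.22 FPKM (-2.14 ± 0.40, adjusted p = 0.0056), and the entry with the smallest adjusted p fell from 6.78 to 0.780 FPKM (-2.51, adjusted p = 0.00011). The smallest of the 12 differences (-0.58, adjusted p = 0.0486) was lost without any of 5 of the 6 libraries.

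Of 14 entries of radial glia or astroglia markers, some of which are also in the list above, 6 were lower and 1 higher, and the 6 became 3 without late tadpole replicate 1. SLC1A3, a glutamate transporter of radial glia and astrocytes, was at 616 and 624 FPKM in its most abundant entry (0.02, adjusted p = 0.908), while a minor entry was lower (2.09 and 0.802 FPKM, -0.99, adjusted p = 0.0189), a call lost without any of 4 of the 6 libraries (adjusted p up to 0.0685). This minor entry was called lower after transection too (-1.03, adjusted p = 0.0027). The 2 NES entries, for the intermediate filament nestin, fell by 1.02 and 0.98, and the more abundant VIM entry from 102 to 71.4 FPKM (-0.50, adjusted p = 0.0196), a call lost without frog replicate 3 or late tadpole replicate 1 (adjusted p up to 0.0678). That VIM entry was called lower after transection too (-0.99, adjusted p = 0.0003). Entries of GLUL, glutamine synthetase, went both ways: the most abundant rose from 552, 627 and 556 FPKM to 858, 878 and 880 FPKM (0.59 ± 0.11, adjusted p = 0.0053), while a minor one fell from 16.2, 17.4 and 7.48 FPKM to 2.505, 3.08 and 2.13 FPKM (-2.13 ± 0.29, adjusted p = 0.0014), and both of these were called the same way after transection (1.03 and -2.38). Another minor GLUL entry fell from 4.23 to 0.820 FPKM (-1.75, adjusted p = 0.0025), and the second most abundant was lower by a smaller amount (153 and 127 FPKM, -0.26, adjusted p = 0.0406), a call lost without any of 5 of the 6 libraries (adjusted p up to 0.139). After transection the former was called again (-1.69, adjusted p = 0.0016) and the latter was not (0.12, adjusted p = 0.304).

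Genes of newly formed neurons were lower in frogs. Of 47 entries tested, 25 were lower, 11 at least 2-fold, and 2 were higher (median -0.45; after transection 31 lower and 1 higher). DCX, the doublecortin of migrating neurons, was at 81.8, 65.4 and 71.8 FPKM in late tadpoles and at 25.0, 26.0 and 26.1 FPKM in frogs (-1.48 ± 0.09, adjusted p = 7.4e-05). It was at 91.5 to 97.1 FPKM at 3 days and 93.0 to 98.7 FPKM at 1 week. The 2 abundant SOX4 entries, for a transcription factor of immature neurons, fell from 38.9 to 10.3 FPKM (-1.87) and from 27.3 to 8.37 FPKM (-1.63). The less abundant STMN1 entry, for the microtubule destabiliser stathmin, fell from 140, 147 and 143 FPKM to 32.4, 34.7 and 27.8 FPKM (-2.17 ± 0.09, adjusted p = 5.5e-05), both entries of NEUROD2 by 1.45 and 1.47 and both of DPYSL3 by 1.17 and 0.95. STMN4, a stathmin relative, was 1 of the 2 that rose (154 to 284 FPKM, 0.88). Outside the list, 2 entries of MEX3A, an RNA-binding protein of progenitors, were among the 10 largest falls (-2.71 and -2.76).

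**Figure D3:**
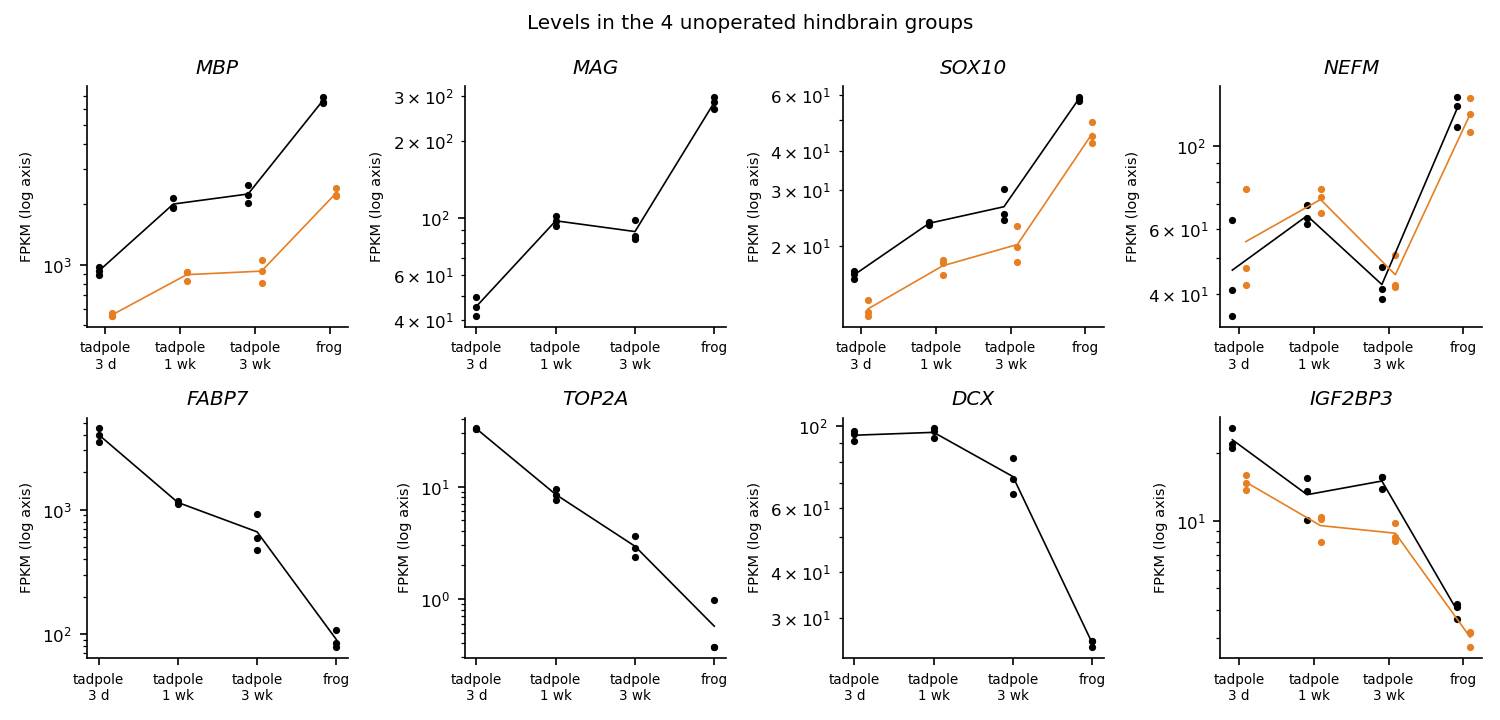
FPKM (log axis) of 8 genes in 4 groups of unoperated hindbrain: early, intermediate and late tadpoles (left to right) and juvenile frogs, 3 libraries each, points for libraries and lines through the means, with 2 colours where a gene has 2 entries. MBP, MAG, SOX10 and NEFM were highest in frogs, and FABP7, TOP2A, DCX and IGF2BP3 were lowest.

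Axon growth proteins declined in part. Of 71 entries tested, 23 were lower in frogs and 7 higher (median -0.16; after transection 27 lower and 12 higher), and the 23 became 14 without frog replicate 2. GAP43, the growth-associated protein of growth cones, was at 183, 177 and 207 FPKM in late tadpoles and at 119, 133 and 137 FPKM in frogs for its more abundant entry (-0.54 ± 0.09, adjusted p = 0.0036), and its second entry fell by 0.49. Neither was called after transection (adjusted p = 0.15 and 0.41). STMN2, a stathmin of growing axons, fell from 862 to 491 FPKM and from 661 to 397 FPKM in its 2 entries (-0.81 and -0.73), 1 entry of the embryonic tubulin gene TUBA1A from 464 to 197 FPKM (-1.24) and MARCKS from 254 to 141 FPKM (-0.85). One entry of NCAM2, an adhesion molecule, fell from 29.3, 29.4 and 30.2 FPKM to 3.51, 5.34 and 4.25 FPKM (-2.65 ± 0.13, adjusted p = 6.7e-05), while the other stayed at 53.5 and 58.4 FPKM (0.13, adjusted p = 0.220). NRCAM, an adhesion molecule of the node of Ranvier, went up from 62.4 to 87.4 FPKM in 1 entry (0.48, adjusted p = 0.0026).

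Of 15 entries of neuronal and glial intermediate filaments, 4 were higher and 3 lower (median 0.10), and the 4 were 2 each of NEFM and INA. Both entries of NEFM, the medium neurofilament subunit that fills large axons, were higher in frogs, the first at 38.8, 47.3 and 41.2 FPKM in late tadpoles and 136, 128 and 113 FPKM in frogs (1.55 ± 0.10, adjusted p = 9.9e-05) and the second by 1.43. Their order over time was not steady, since the 3-week tadpoles lay below the 1-week tadpoles (61.6 to 69.4 FPKM for the first entry). INA, the gene of internexin, was called in 2 of 7 tested entries, both higher in frogs (0.76 and 0.87), and neither of 2 PRPH entries was called (adjusted p = 0.492 and 0.518).

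Genes of growth inhibition and of the perineuronal net, the matrix that surrounds mature neurons, had 11 higher and 10 lower of 47 entries tested, near the shares of 18.1% and 16.4% over all entries. Without frog replicate 2 these were 9 and 4. The higher ones included link proteins that anchor the net to hyaluronan. HAPLN2, a link protein of the nodes of Ranvier, was at 13.2, 12.1 and 10.7 FPKM in late tadpoles and at 43.4, 36.8 and 33.98 FPKM in frogs (1.62 ± 0.11, adjusted p = 0.00012), HAPLN1 rose from 9.52 to 27.2 FPKM (1.48) and HAPLN4 from 23.7 to 52.6 FPKM (1.14), and each was called after transection too (1.92, 1.12 and 1.42). The abundant CHST3 entry, for a chondroitin sulfotransferase, rose from 4.896 to 10.2 FPKM (0.98). RTN4, which encodes Nogo, was higher by only 0.27 and 0.32 in its 2 entries (adjusted p = 0.019 and 0.016), and each call was lost without 2 of the 6 libraries (adjusted p up to 0.0716). Among the lower ones were 1 entry of TNC, the gene of tenascin-C (6.73 to 3.10 FPKM, -1.01), and EPHA4, an ephrin receptor (37.7 to 26.6 FPKM, -0.50).

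Ion channel genes rose more often than they fell. Of 41 sodium and potassium channel entries tested, 21 were higher in frogs and 3 lower (median 0.43), and 22 were higher and 2 lower after transection. KCNAB3, an auxiliary potassium channel subunit, stood at 9.001, 12.9 and 10.6 FPKM in late tadpoles and at 28.4, 29.8 and 27.98 FPKM in frogs (1.38 ± 0.12, adjusted p = 0.00024). The abundant entry of KCNN3, a calcium-activated potassium channel, was at 37.7, 42.6 and 35.6 FPKM and at 83.2, 82.6 and 76.9 FPKM (1.06 ± 0.08, adjusted p = 0.00016), after 8.12 to 8.76 FPKM at 3 days. KCNA1, a potassium channel flanking the node, rose from 16.3 to 30.8 FPKM (0.90), and both entries of SCN4B, a sodium channel subunit, rose (0.84 and 0.61). SCN3B entries split, with the most abundant higher (0.49) and 2 lower (-0.62 and -0.73, the latter not called without 1 of the 6 libraries, adjusted p = 0.0548).

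Transmitter receptors and chloride transporters had 11 higher and 1 lower of 34 entries tested (median 0.11), beside shares of 18.1% and 16.4% over all entries. The 11 became 5 without frog replicate 2. The only 3 that reached 2-fold were GLRA1, the adult alpha subunit of the glycine receptor in mammals, and both entries of SLC12A2, the chloride importer NKCC1. GLRA1 was at 66.5, 77.6 and 65.2 FPKM in late tadpoles and at 156, 137 and 138 FPKM in frogs (1.04 ± 0.09, adjusted p = 0.00026). The more abundant SLC12A2 entry was at 19.3, 22.5 and 21.8 FPKM and at 50.1, 44.4 and 47.8 FPKM (1.15 ± 0.08, adjusted p = 0.00013). One of 4 GRIK2 entries, for a kainate receptor, fell from 43.4, 49.4 and 49.5 FPKM to 21.4, 26.3 and 23.2 FPKM (-0.99). GRIN2B, the juvenile NMDA receptor subunit in mammals, was not called in either entry (-0.13 and -0.17, adjusted p = 0.166 and 0.108).

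Synaptic release genes had 15 higher and 5 lower of 46 tested (median 0.07), and 6 and 3 without frog replicate 2. The glycine transporter SLC6A5, which marks inhibitory glycinergic neurons, rose from 44.9 to 86.1 FPKM (0.93), SV2C from 31.8 to 53.4 FPKM (0.75) and the fast calcium sensor SYT2 from 114 to 173 FPKM (0.61). One entry of SLC18A3, the vesicular acetylcholine transporter of motor neurons, fell from 14.6 to 9.52 FPKM (-0.59), and 1 of SYT1 from 20.5 to 12.9 FPKM (-0.66). A minor SYT1 entry rose from 0.594 to 1.35 FPKM (0.75, adjusted p = 0.0085), and the 2 most abundant SYT1 entries were not called (adjusted p = 0.21 and 0.45).

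Cerebellar genes were described by cell class, and the classes were not tested against each other. Of 29 granule cell entries tested 9 were lower in frogs and 0 higher (median -0.40; after transection 16 lower and 3 higher). NEUROD1, a granule cell transcription factor, was lower in both entries (-0.89 and -0.72), the latter call being lost without any of 4 of the 6 libraries (adjusted p up to 0.117), as was 1 entry of CBLN1, a synaptic organiser secreted by granule cells (22.3 to 14.7 FPKM, -0.58). Of 22 Purkinje cell entries 7 were higher and 5 lower. The higher ones held both PVALB entries, for parvalbumin, of which the more abundant rose from 48.3, 71.7 and 56.6 FPKM to 103, 112 and 117 FPKM (0.92 ± 0.13, adjusted p = 0.0019), and 1 entry of CALB1, for calbindin (11.6 to 17.1 FPKM, 0.55). The lower ones were transcription factors of developing neurons: FOXP2 (-0.72), both entries of LHX1 (-0.40 and -0.39) and both of LHX5 (-0.50 and -0.25). These became 2 without frog replicate 2.

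Among genes that mark position along the brain axis, no entry was called higher in frogs. Of 25 HOX entries tested 0 were higher and 2 lower (median -0.28), below the shares of 18.1% and 16.4% over all entries tested. The 2 ranged over 0 to 3 with 1 library left out and became 1 without frog replicate 2. Among them was 1 entry of HOXD3 (13.98 to 11.1 FPKM, adjusted p = 0.0352), a call lost without any of 4 of the 6 libraries (adjusted p up to 0.110). After transection 12 of the HOX entries were called lower. Of 19 midbrain and forebrain entries 8 were lower and 0 higher (median -0.46), among them both entries of TAL2 (-0.99 and -0.76), of DMBX1 (-0.57 and -0.43) and of LHX2 (-0.65 and -0.53). How the dissection border compared between the stages is not given, and its part was not tested.

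Cytosolic ribosomal protein genes fell together. All 143 entries tested had a negative difference, 135 were called lower, 115 of them at least 2-fold, and 0 were higher, with a median of -1.18. After transection 139 were called lower (median -1.05). The summed level was 60250, 64670 and 47760 FPKM in late tadpoles, which is 15.0%, 14.8% and 12.0% of all FPKM, and 28480, 25340 and 22250 FPKM in frogs, or 7.29%, 6.68% and 5.94%. Younger tadpoles were near the late ones, at 12.4% to 16.7%. The more abundant RPS15A entry fell from 559 to 198 FPKM (-1.49 ± 0.10, adjusted p = 9.9e-05), and RPL37A fell from 344 to 98.3 FPKM (-1.82). The most abundant RPL37 entry, at 5872 and 3064 FPKM, was called narrowly (-0.93, adjusted p = 0.0487), and without 5 of the 6 libraries it was not (adjusted p up to 0.184). With median-of-ratios scaling in place of the deposited FPKM, the median over all entries tested was -0.0011 instead of 0.02.

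Respiratory chain genes moved less. Of 130 oxidative phosphorylation entries 31 were lower and 2 higher (median -0.22). Without frog replicate 2 these became 15 and 1, and without frog replicate 3 the 31 became 11. Only 11 were called lower after transection, where the median was -0.002. NDUFA4 was 1 of the 2 that rose (109 to 197 FPKM, 0.85, adjusted p = 0.0029).

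**Figure D4:**
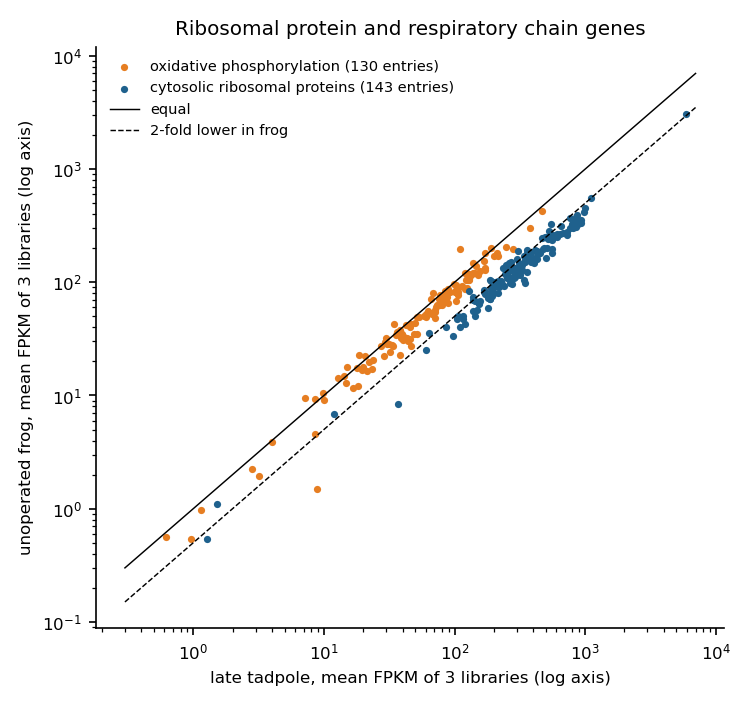
Mean FPKM of 3 libraries in late tadpoles (horizontal log axis) and in unoperated frogs (vertical log axis) for 143 cytosolic ribosomal protein entries and 130 oxidative phosphorylation entries. Ribosomal protein entries cluster about the dashed line of a 2-fold fall, with a median log2 difference of -1.18, and respiratory chain entries lie close to the line of equality, with a median of -0.22.

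Of 39 entries of cholesterol synthesis, which supplies myelin with its main sterol, 10 were higher in frogs and 1 lower (median 0.33). The shares over all entries tested were 18.1% and 16.4%, and the 10 became 6 without frog replicate 1. After transection 6 were higher and 0 lower, beside shares of 19.9% and 15.6% over all entries tested there. SQLE, squalene epoxidase, rose from 18.4 to 31.1 FPKM (0.76, adjusted p = 0.0042).

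The 10 largest falls named by the rule were 2 entries of MEX3A and 1 each of SDS, AHCY, FABP7, NCAM2, RTN2, HES5, GCAT and CEBPD. The SDS entry, for serine dehydratase, fell from 66.0, 53.6 and 60.9 FPKM in late tadpoles to 0.957, 1.21 and 1.06 FPKM in frogs (-5.26 ± 0.11, adjusted p = 5.3e-07), the largest of the 10, and the other SDS entry fell from 29.1 to 8.82 FPKM (-1.67). The first entry had been at 2.11 to 3.54 FPKM at 3 days and at 6.49 to 37.4 FPKM at 1 week, so that its level rose within the tadpole groups before the frogs fell below all of them. In transected animals it was at 84.3 to 92.9 FPKM in tadpoles and at 0.805 to 6.13 FPKM in frogs. One AHCY entry, for adenosylhomocysteinase, fell from 20.4 to 1.92 FPKM (-3.13), and 1 GCAT entry from 5.69 to 0.597 FPKM (-2.49). The most abundant tadpole ODC1 entry, for the enzyme that starts polyamine synthesis and chosen after its values were seen, fell from 78.0 to 18.6 FPKM (-2.04).

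RNA-binding and high-mobility-group genes that mark early developmental time in vertebrates were lower or not called: of 27 entries tested 12 were lower and 0 higher. The 2 IGF2BP3 entries, for an RNA-binding protein of embryonic tissues, fell from 15.6, 13.8 and 15.6 FPKM to 3.64, 4.24 and 4.12 FPKM (-1.79 ± 0.10, adjusted p = 6.7e-05) and from 8.79 to 3.02 FPKM (-1.40). HMGB3 fell by 0.96 and 0.99 in its 2 entries, and the more abundant LIN28B entry, for a let-7 inhibitor, from 3.65 to 2.09 FPKM (-0.68, adjusted p = 0.0073). Among 57 chromatin enzyme entries 21 were lower and 2 higher, and the 2 became 1 without frog replicate 2. JARID2, a partner of the Polycomb complex, was at 899, 871 and 842 FPKM in late tadpoles and at 481, 507 and 538 FPKM in frogs in its abundant entry (-0.78 ± 0.11, adjusted p = 0.0014) and had been at only 103 to 112 FPKM in tadpoles at 3 days.

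Red cell genes held the largest rises. Vertebrate red cells replace larval or embryonic globins by adult ones, and in *Xenopus* the larval and adult genes lie in clusters of alpha and beta globins. Of 21 erythroid entries tested 10 were higher and 4 lower, and the list summed to 660 to 883 FPKM in late tadpoles and to 2504 to 3567 FPKM in frogs. In younger unoperated tadpoles the sum was 3893 to 5483 FPKM at 3 days, above the frogs, and 479 to 657.5 FPKM at 1 week. A set of 3 globin entries was at or below 13.2 FPKM in late tadpoles and at or above 373 FPKM in frogs. One HBG2 entry was at 1.49, 13.2 and 0.965 FPKM in late tadpoles and at 1690, 1096 and 1391 FPKM in frogs (8.65 ± 0.72, adjusted p = 0.0002). An HBA1 entry was at 0.898, 9.86 and 0.870 FPKM and at 1204, 848 and 1193 FPKM (8.62 ± 0.69), and a second HBG2 entry at 0.176, 9.54 and 0.170 FPKM and at 500.3, 373 and 543 FPKM (8.14 ± 0.92). Late tadpole replicate 2 stood apart from the other 2 late tadpole libraries in all 3, and without it the differences were 9.65, 9.59 and 9.44.

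Other globin entries went down as these went up. The most abundant HBE1 entry fell from 342, 379.9 and 306 FPKM to 54.4, 71.4 and 73.2 FPKM (-2.37 ± 0.13, adjusted p = 6.7e-05), HBD from 275 to 54.5 FPKM (-2.30) and 1 HBZ entry from 153 to 32.4 FPKM (-2.21), while another HBZ entry rose from 0, 1.86 and 0 FPKM to 7.42, 9.58 and 19.0 FPKM (3.79, adjusted p = 0.0027). The falling entries had been higher still at 3 days: HBE1 at 1136 to 1843 FPKM, HBD at 1356 to 1669 FPKM and HBZ at 689 to 970 FPKM. At 1 week HBE1 was at 108 to 132 FPKM, below the late tadpoles. HBD was then at 240 to 380 FPKM and HBZ at 87.3 to 128 FPKM. By the coordinates of the entry names all the globin entries named lie on 2 scaffolds. HBA1 (3949367 to 3950058, minus strand), the second HBG2 entry (3937905 to 3940143, minus) and HBD (4270214 to 4272354, plus) lie on scaffold JGIv7b.000026364. The first HBG2 entry (1904369 to 1906022, minus), the HBZ entry that fell (1966057 to 1967928, minus), the HBZ entry that rose (2021318 to 2028625, minus) and the HBE1 entry (2297747 to 2299576, plus) lie on scaffold JGIv7b.000120240. Both scaffolds held rising and falling entries. Other genes of red cells rose in some entries: ALAS2, the first enzyme of haem synthesis in red cells, from 0.920 to 3.76 FPKM (1.55), 1 entry of RHAG from 0.564 to 2.29 FPKM (1.37) and SLC4A1, the band 3 anion exchanger, from 0.891 to 2.49 FPKM in its called entry (1.10). At 3 days these entries of ALAS2, RHAG and SLC4A1 had averaged 4.97, 1.46 and 4.97 FPKM in unoperated tadpoles. The most abundant RHAG entry was at 2.93 and 2.66 FPKM and was not called (-0.11, adjusted p = 0.64). How much blood each pool held is not given, and its part in the globin values was not tested.

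**Figure D5:**
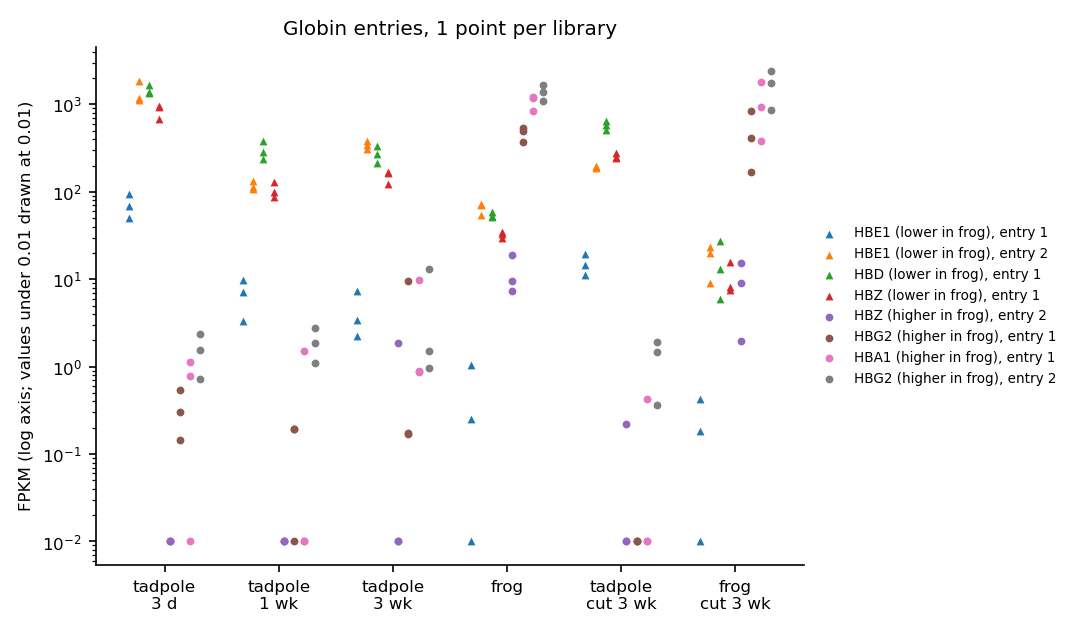
FPKM (log axis, values under 0.01 drawn at 0.01) of 8 globin entries in 6 hindbrain groups, 1 point per library, circles for entries higher in unoperated frogs and triangles for entries lower; "cut" groups were taken 3 weeks after transection. The most abundant circle, HBG2, was at 0.965 to 13.2 FPKM in 3-week tadpoles and at 1096 to 1690 FPKM in frogs, and the most abundant triangle, HBE1, was at 306 to 379.9 FPKM and at 54.4 to 73.2 FPKM.

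Immune genes gave a mixed picture. Of 43 entries of antigen presentation and interferon response, 12 were higher and 5 lower, with 7 of the 12 at least 2-fold. Over all entries tested 18.1% were higher and 16.4% lower. The 5 became 1 without frog replicate 1 and 2 without frog replicate 2. IFIT5, an interferon-induced gene, had 6 entries tested and all 6 were higher in frogs (log2 difference 1.51 to 2.39). This 1 gene thus supplied 6 of the 12 higher entries, and 6 of the 7 at least 2-fold. One stood at 0.629, 2.77 and 1.36 FPKM in late tadpoles and at 7.92, 8.30 and 12.9 FPKM in frogs (2.39 ± 0.36, adjusted p = 0.0021), and 4 of the 6 were also called after transection. One entry of STAT2, a signal transducer of interferon receptors, rose from 0.978 to 3.49 FPKM (1.40) but was not called after transection (adjusted p = 0.094). The class II genes HLA-DQB1, HLA-DPB1 and HLA-DQA1 were lower by 0.77 to 0.89. Of their 4 called entries, 3 lost the call without any of at least 3 of the 6 libraries, and none was called after transection. Neither entry of the class II invariant chain CD74 was called (adjusted p = 0.24 for both). Of 15 microglia and macrophage entries tested 1 was higher and 2 lower, beside shares of 18.1% and 16.4% over all entries tested. The higher one was TYROBP, at 0, 0 and 0.404 FPKM in late tadpoles and at 1.75, 0.620 and 0.593 FPKM in frogs (1.20, adjusted p = 0.0319). Its call was lost without late tadpole replicate 1, and it was not called after transection (0.69, adjusted p = 0.203). TREM2, 1 of the lower ones, fell from 3.82 to 1.12 FPKM (-1.43, adjusted p = 0.0117) and was called lower after transection too (-0.88, adjusted p = 0.0118). The list summed to 40.8 to 46.3 FPKM in late tadpoles and 28.02 to 39.9 FPKM in frogs. After transection the sums overlapped, at 46.5 to 60.7 FPKM in tadpoles and 52.5 to 60.0 FPKM in frogs.

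Genes of the ventricle lining and of extracellular matrix were called higher more often than lower. Of 14 entries of ependyma and choroid plexus, 7 were higher and 0 lower. Among the higher ones were DNAH9, a ciliary dynein (7.86 to 15.4 FPKM, 0.93), and AQP1, the water channel of choroid plexus (12.5, 16.6 and 14.03 FPKM against 40.3, 42.5 and 37.1 FPKM, 1.45 ± 0.11, adjusted p = 0.00013). FOXJ1, the regulator of motile cilia, was higher in its most abundant entry (2.53 to 5.02 FPKM, 0.87), while its other entries tested were not called (adjusted p = 0.128 and 0.545). OTX2 was at 1.92 and 1.10 FPKM and was not called (-0.62, adjusted p = 0.0507). TTR, which defines choroid plexus in mammals, was at or near 0 in all 6 libraries. Of 42 matrix entries 16 were higher and 3 lower. The 16 became 8 without late tadpole replicate 3 and 9 without frog replicate 2. HSPG2, for perlecan, rose from 5.02 to 11.1 FPKM (1.08), FBN1, for fibrillin, from 1.34 to 3.63 FPKM (1.16) and both entries of the proteoglycan LUM by 1.03 and 1.07. Meningeal and fibroblast markers, which include LUM, summed to 26.0 to 86.1 FPKM in late tadpoles and 30.4 to 31.9 FPKM in frogs. A single PTGDS entry supplied much of these sums, with 29.0, 75.2 and 16.8 FPKM in late tadpoles and 17.2, 14.9 and 11.0 FPKM in frogs. It was not called (-1.21, adjusted p = 0.0757), so the sums say little about the other markers. Of 8 entries tested 3 were higher, among them both of LUM, and 1 was lower. The part of these markers in the matrix counts was not tested.

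The 10 largest rises named by the rule held, besides 4 globin entries, ITIH6, CHRDL1 and 1 entry each of LGI1, GALNT3, IFIT5 and GNPAT. ITIH6, which belongs to the family of hyaluronan-binding inter-alpha-trypsin inhibitor heavy chains, was at 0.911, 2.58 and 1.04 FPKM in late tadpoles and at 25.1, 26.3 and 24.5 FPKM in frogs (3.78 ± 0.26, adjusted p = 0.00012). CHRDL1, an antagonist of bone morphogenetic proteins, was at 0.896, 3.71 and 1.45 FPKM and at 17.6, 14.3 and 16.5 FPKM (2.88 ± 0.35, adjusted p = 0.00083). Late tadpole replicate 2 was the highest tadpole library for both, as it was for THRB, KLF9 and the rising globins. Of 4 LGI1 entries the 2 minor ones rose, from 0.472 to 5.74 FPKM (2.69) and from 4.06 to 13.7 FPKM (1.64), while the 2 abundant entries of this secreted synaptic protein were not called (adjusted p = 0.62 and 0.27).

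Whether the stage difference of a gene depended on injury was tested as the interaction of stage and transection over 12 libraries. Of 20419 entries tested, 16 were called (0.0784%), 7 with a more positive difference in unoperated animals (0.0343%) and 9 with a more negative one (0.0441%), and the difference of differences reached 2-fold in 5 of the former (0.0245%) and 7 of the latter (0.0343%). ASNS, asparagine synthetase, had 31.1, 21.7 and 28.4 FPKM in late tadpoles and 6.92, 7.41 and 7.98 FPKM in frogs (-1.78 ± 0.13, adjusted p = 0.00013) but differed by only -0.30 after transection (interaction -1.48 ± 0.16, adjusted p = 0.0080). MID1, a microtubule-associated ubiquitin ligase, had 1 entry at 4.16, 5.46 and 3.63 FPKM and at 12.7, 14.04 and 13.3 FPKM (1.51) against -0.20 after transection (interaction 1.71 ± 0.18, adjusted p = 0.0080). The transfer RNA synthetase genes AARS and VARS were lower in unoperated frogs (-0.68 and -0.90 in the entries concerned) and higher in transected ones (0.40 and 0.27). JARID2 was lower in unoperated frogs (-0.78) and was not called after transection (0.33, adjusted p = 0.12). Only ASNS and MID1 were called in all 12 fits that left out 1 library. The entries of KLF9, DIO2, GAP43 and GPR17 that were called in only 1 measurement were not among the 16.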

How the data were processed

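Hindbrain RNA was depleted of ribosomal RNA, made into stranded libraries and sequenced as 75-base single reads, all libraries together. The authors aligned reads with TopHat2 2.1.1 and Bowtie2 2.2.9 and deposited FPKM values from Cufflinks (version not given in the sources used here) for the Mayball gene model, with alignments that could not be placed split at random between homeologs. The study's methods name genome version 9.1 while the entry names carry JGIv7b coordinates, so positions are those of the entry names. The deposited files used here hold FPKM and not counts, and depth was compared between libraries as the relative FPKM of 1 read, from 1510 entries with few reads (93.0% of values whole within 0.1 read).

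Entries averaging 0.45 FPKM or more in either compared group were tested on log2(FPKM + 0.5) with limma 3.58.1 (R 4.3.3; variance trend, Benjamini-Hochberg adjustment over all entries tested), after a check on simulated data. Samples were grouped by title, apart from the day of the 3-day unoperated tadpoles, which was taken from the study's design. Tables and figures used Python 3.11.15, pandas 2.3.3, numpy 2.4.6 and matplotlib 3.10.9. Genes and lists were chosen with earlier results of these data known. Named genes were the 10 largest called rises and falls whose groups did not overlap and whose higher group averaged 5 FPKM or more, up to 2 rises and 2 falls per list under the same rule with 1 FPKM, and a set of symbols; further list members were chosen after their values were seen. Alternatives changed the scaling, the filter, the pseudocount, the variance trend, the samples fitted and the replicate block, or left out each library. Results for some genes are not reported here.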

Additional observations from a re-analysis of the deposited data

Results flagged for a closer look

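The 15 entries below, of 16 called, had a stage difference, frog minus tadpole, that differed between unoperated and transected animals by limma's interaction test (0.0784% of the entries tested). Values are the difference in unoperated animals minus that in transected animals on the log2 scale, each with its adjusted p. A less negative or more positive difference in unoperated animals was found for HBZ, whose entry fell less steeply in unoperated frogs (2.42, adjusted p = 0.0171), for a CTXN3 entry listed at 0 in all late tadpole libraries and at 1.29, 2.73 and 2.61 FPKM in frogs (2.39, adjusted p = 0.0171), for MID1 (1.71, adjusted p = 0.0080), CD274 (1.63, adjusted p = 0.0481), UCN (1.58, adjusted p = 0.0277), UTS2B (0.98, adjusted p = 0.0454) and VSTM4 (0.80, adjusted p = 0.0454). A more negative or less positive difference was found for ASNS (-1.48, adjusted p = 0.0080), RPE65 (-1.41, adjusted p = 0.0454), PRKAG3 (-1.29, adjusted p = 0.0380), VARS (-1.17, adjusted p = 0.0434), JARID2 (-1.11, adjusted p = 0.0454), AARS (-1.07, adjusted p = 0.0249), RPS6KA5 (-0.58, adjusted p = 0.0454) and MAP2K7 (-0.58, adjusted p = 0.0434). Of 12 fits that each left out 1 library, ASNS and MID1 were called in 12, CTXN3 and HBZ in 6, UCN in 5, AARS and PRKAG3 in 4, RPE65 and VSTM4 in 3, CD274, JARID2, MAP2K7, RPS6KA5 and VARS in 2, and UTS2B in 1.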

How the results depend on the processing

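The count of 6978 entries called in unoperated animals ranged over 4880 to 5844 with 1 library left out and over 6213 to 8552 under 8 other alternatives on the same samples, and was 14158 when tadpoles taken at 3 days replaced the late tadpoles. The 911 entries called at least 2-fold ranged over 855 to 999 with 1 library left out and became 1367 with a pseudocount of 0.1. The 7151 calls after transection ranged over 5081 to 7791 with 1 library left out. The 16 interaction calls ranged over 2 to 39 with 1 library left out: they were 39 without late tadpole replicate 2, 32 without transected frog replicate 1, and 2 without late tadpole replicate 3, frog replicate 2, transected tadpole replicate 1 or 2 or transected frog replicate 3. They were 8 with no minimal expression, 107 with all hindbrain groups in one fit, 9 without a variance trend, and 9 without the 2 frog libraries of highest lens level, an alternative chosen after seeing the data. Among the alternatives that kept the late tadpoles, 249 of 321 named entries called were called under every one, and 0 of 450 tested reversed with a call. Fits with younger tadpoles in place of the late ones were left out of these counts of named entries. Of 1280 list counts under the alternatives, those with younger tadpoles included, 263 moved beyond 1.5 times. The causes were not tested.

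Deviations of same-numbered frog and late tadpole libraries correlated at 0.114, -0.0092 and 0.230, so the numbers were not taken to pair the samples; with the replicate block 7339 entries were called. Read totals per library were not used here. By the FPKM worth of 1 read, which the scaling of the deposited FPKM also enters, the frog libraries were the shallower ones. Lower depth limits entries of low level most.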
